A study of Mus musculus with 8 samples.

Results

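Igf2bp1, Igf2bp2, Igf2bp3, Lin28a, Lin28b, Hmga1, Hmga2, Plag1, Plagl1 and Plagl2 are grouped here as oncofetal genes and their relatives. The term is used for genes that are active in the embryo, decline with maturation and return in tumours, which does not hold for each of the 10: Igf2bp2 stays on in many adult tissues, and Plagl1 is known as a growth suppressor. They were chosen by name as fetal growth regulators that act on Igf2 mRNA or its promoters, and all 10 were found among the 23336 genes of the table. The tissue was skeletal muscle of female C57BL/6 mice, taken at postnatal day 2 and profiled by sequencing of total RNA. Of the 8 libraries, 4 came from ΔDMR1-U2 mice, which carry a deletion at Igf2, and 4 came from wild-type mice. No source used here names the parent that passed on the deletion or says whether libraries 1A and 1B of a group share a litter. The list was put together with results of this comparison known, in which Igf2bp2 and Plag1 were already called. Every ΔDMR1-U2 to wild-type value below is therefore a description, and each adjusted p is that of the fit over all genes, not independent evidence.

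The IGF2BP proteins bind Igf2 mRNA and other messengers and control where, how long and how well they are translated. LIN28A and LIN28B block the maturation of let-7, a microRNA family that silences growth genes and accumulates as tissues mature. HMGA1 and HMGA2 bend AT-rich DNA and alter chromatin, and the PLAG zinc-finger proteins bind GC-rich promoters, among them those of human IGF2. In mice, loss of Hmga2 or of Plag1 gives small animals, and in mouse myoblasts HMGA2 is known to drive Igf2bp2.

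Mature let-7 sequences are shown because most of these genes carry its seed match. In the RefSeq sequences of build GRCm38.p6, the seed, bases 2 to 8, is in capitals and is the same in all 9 mature forms listed, miR-98 among them. The members shown differ only outside it:
mmu-let-7a-5p: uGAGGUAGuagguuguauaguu
mmu-let-7d-5p: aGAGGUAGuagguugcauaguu
mmu-let-7i-5p: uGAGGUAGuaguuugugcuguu
mmu-miR-98-5p: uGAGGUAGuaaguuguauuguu

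The 3′ untranslated regions of 8 of the 10 genes held at least 1 complement of this seed, CTACCTC, searched on the transcript strand in the coding transcript with the longest annotated region (GENCODE vM21, mm10). Over all 20658 protein-coding genes with an annotated region of at least 50 bases, 9.2% held one, and of the 3945 tested genes with 2000 bases or more, 20.5% did. Igf2bp1, Lin28b and Hmga2 held 4 each, and only 12 of the 20658 genes, these 3 included, held 4 or more. Lin28a held 2, and Igf2bp2, Igf2bp3, Hmga1 and Plagl2 held 1 each, while Plag1 and Plagl1 held none in regions of 2694 and 2590 bases. Per length, Hmga2 had 1.33 matches per kilobase, Lin28b 0.90 and Igf2bp1 0.631, against 0.070 over all genes. Such matches describe the sequence, not a measured site.

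The matches below show the seed complement in capitals, 1 per gene and, for Hmga2, a further one, with the preceding bases that could pair with the rest of the microRNA and the base that follows. A following A, which strengthens repression, stood after 3 of the 4 matches in Igf2bp1, both in Lin28a, the single ones in Igf2bp2 and Igf2bp3, and the one nearest the stop codon in Lin28b and Hmga2.
Igf2bp1, chr11:95961778-95961800, minus strand: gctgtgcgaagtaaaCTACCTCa
Igf2bp2, chr16:22059473-22059495, minus strand: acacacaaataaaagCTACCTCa
Igf2bp3, chr6:49086787-49086809, minus strand: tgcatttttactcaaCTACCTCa
Lin28a, chr4:134005189-134005211, minus strand: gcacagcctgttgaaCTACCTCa
Lin28b, chr10:45381022-45381044, minus strand: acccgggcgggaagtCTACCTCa
Hmga2, chr10:120364224-120364246, minus strand: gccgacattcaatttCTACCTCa
Hmga2, chr10:120361691-120361713, minus strand: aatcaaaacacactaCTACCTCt
Hmga1, chr17:27563277-27563299, plus strand: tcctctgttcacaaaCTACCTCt
Plagl2, chr2:153229898-153229920, minus strand: ttcagaaacacacttCTACCTCt

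**Figure D1:**
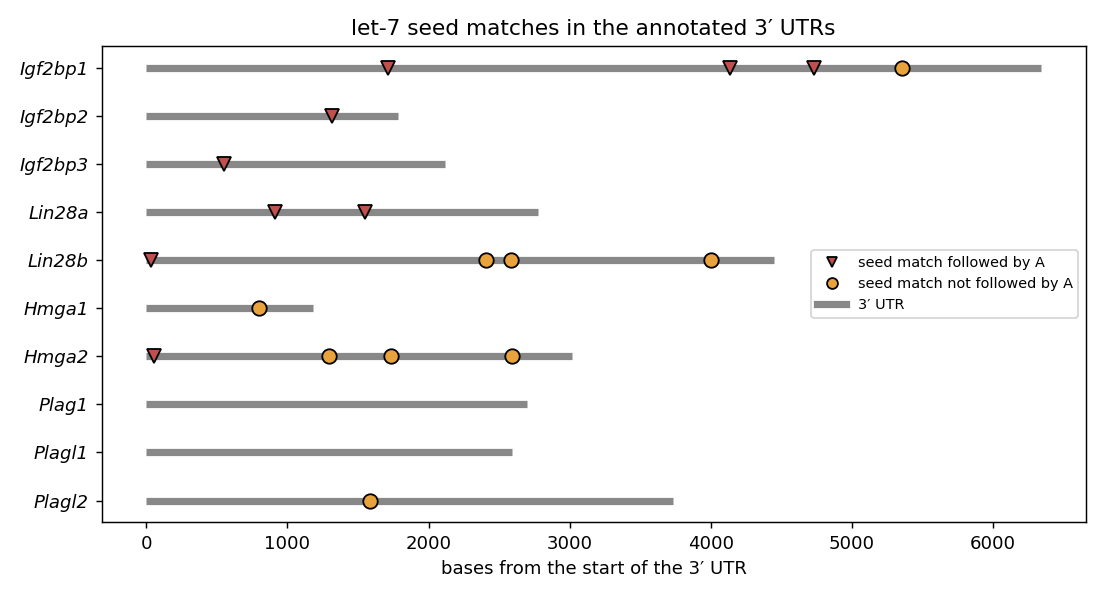
Each grey bar is the longest annotated 3′ untranslated region of a gene, drawn to scale in bases from its start, and each symbol a let-7 seed complement (triangle where an A follows, circle where not). Igf2bp1, Lin28b and Hmga2 carry 4 each, and Plag1 and Plagl1 carry none.

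Total counts were 16781493 to 20060129 in ΔDMR1-U2 libraries and 16084413 to 26913636 in wild-type libraries, and the titin gene Ttn, which defines striated muscle, took 10.5% to 11.9% of them in ΔDMR1-U2 libraries, against 11.6% to 12.8% in wild-type libraries. Igf2as, the transcript antisense to Igf2 at the deleted locus, was at 5.93 ± 0.269 CPM in ΔDMR1-U2 muscle, against 63.5 ± 9.70 CPM in wild-type muscle (SD, n = 4 each; CPM is the count divided by the scaled library size and rescaled to a common total). Libraries that stood apart were ΔDMR1-U2 1A, with 2.50 CPM of the X-inactivation RNA Xist against 1270 to 1895 CPM in the other 7 although all are labelled female, and ΔDMR1-U2 1B, with 602 summed CPM of 7 adipocyte markers against 179 to 266 in the other 7. In whole tissue, fewer cells of a type and less RNA per cell cannot be told apart.

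Of the 9 genes that passed the filter on low counts, Igf2bp2 and Plag1 were called higher in ΔDMR1-U2 muscle, 0 were called lower and 7 were not called, with Hmga1 below the filter. Over all genes, 1.13% were called at an adjusted p under 0.05 (172 of 15241), with 0.512% called higher and 0.617% called lower. The median log2 fold change of the 9 was 0.13, against a median near 0 (-0.0010) over all genes tested, and 7 of the 9 had a positive value, against 49.8% of all genes. The ΔDMR1-U2 and wild-type libraries did not overlap for Igf2bp2, Hmga2 and Plag1, all higher in ΔDMR1-U2, nor for the untested Hmga1, which was lower, while 12.8% of tested genes had groups that did not overlap.

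**Figure D2:**
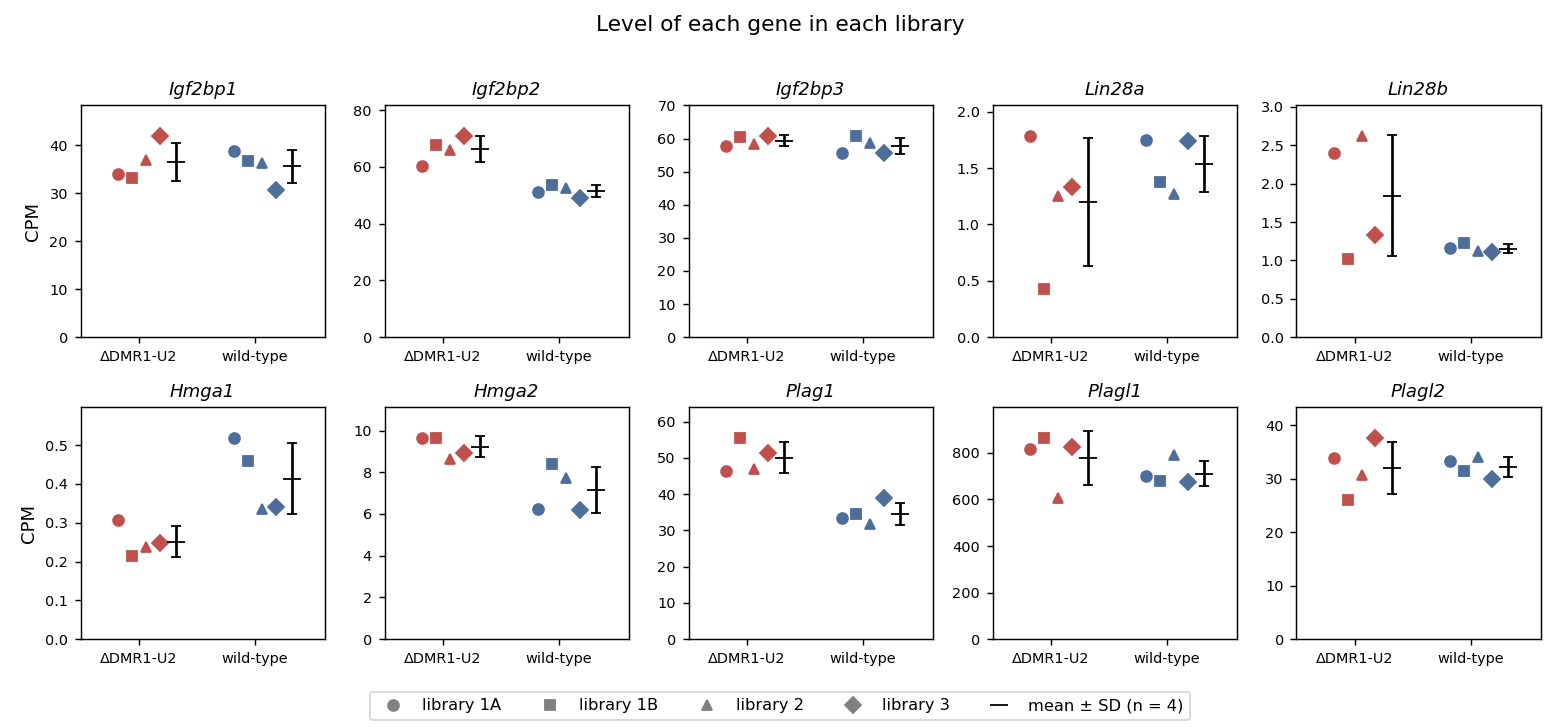
CPM of each gene (y axis from 0, own scale per panel) in the 4 ΔDMR1-U2 libraries, left, and the 4 wild-type libraries, right; symbols give the library name, and the bar is the mean with its SD. The groups are apart for Igf2bp2, Hmga2, Plag1 and Hmga1, and they overlap for the other 6 genes.

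Among the Igf2bp genes, Igf2bp2 was the only one called. It lies on chromosome 16 from 22059009 to 22163299 on the minus strand (mm10). Igf2bp2 had 60.4, 67.8, 65.8 and 71.0 CPM in ΔDMR1-U2 1A, 1B, 2 and 3, against 51.0, 53.5, 52.5 and 49.0 CPM in wild-type 1A, 1B, 2 and 3. The lowest ΔDMR1-U2 library, 1A, lay above the highest wild-type library, 1B. Its mean was 66.2 ± 4.46 CPM in ΔDMR1-U2 muscle, against 51.5 ± 1.98 CPM in wild-type muscle (SD, n = 4 each), a log2 fold change of 0.36 (SE 0.07), or 28.6% more (adjusted p = 0.0370, edgeR quasi-likelihood test). This call stood without ΔDMR1-U2 library 1A or 2 and was lost without any other single library, with log2 fold changes of 0.33 to 0.41 and adjusted p values up to 0.123 in these 8 fits (edgeR). In the authors' deposited table the ratio of wild-type to ΔDMR1-U2 was 0.778 with an adjusted p of 0.126.

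Igf2bp1 and Igf2bp3, which in mice are mainly embryonic, were at nearly the same level in both groups. Igf2bp3, on chromosome 6 from 49085223 to 49214957, had 57.6, 60.6, 58.4 and 60.9 CPM in ΔDMR1-U2 muscle, against 55.7, 60.7, 58.7 and 55.7 CPM in wild-type muscle. Its log2 fold change was 0.04, with a 95% confidence interval of -0.09 to 0.17, and its coefficients of variation, 2.71% in ΔDMR1-U2 and 4.30% in wild-type muscle, were below the medians over all tested genes, which were 11.6% in ΔDMR1-U2 and 9.05% in wild-type muscle. Igf2bp3 shares 1529 exon bases with Malsu1 on the opposite strand, and no source used here states whether strand was used in counting, so reads of that stretch cannot be told apart. Igf2bp1, on chromosome 11 from 95957163 to 96005940, had 34.0, 33.2, 36.9 and 42.0 CPM in ΔDMR1-U2 against 38.7, 36.7, 36.4 and 30.7 CPM in wild-type, with ranges that overlap. Its log2 fold change was 0.04 with a 95% confidence interval of -0.18 to 0.25, and it was -0.03 without ΔDMR1-U2 library 3 or without wild-type library 3.

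Because the 3 paralogs were counted in the same libraries, their proportions do not depend on how the libraries are scaled. Per kilobase of exon, Igf2bp2 made up 43.6% to 45.8% of the 3 genes' sum in ΔDMR1-U2 libraries and 38.9% to 39.8% in wild-type libraries, with no overlap. Igf2bp3 made up 34.9% to 37.7% in ΔDMR1-U2 muscle, against 38.5% to 41.1% in wild-type muscle, also apart, and Igf2bp1 made up 17.1% to 20.3% in ΔDMR1-U2, against 19.1% to 22.6% in wild-type, overlapping. These shares rest on the same contrast as the fold changes and show unequal change among the 3 genes, not which one was constant.

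**Figure D3:**
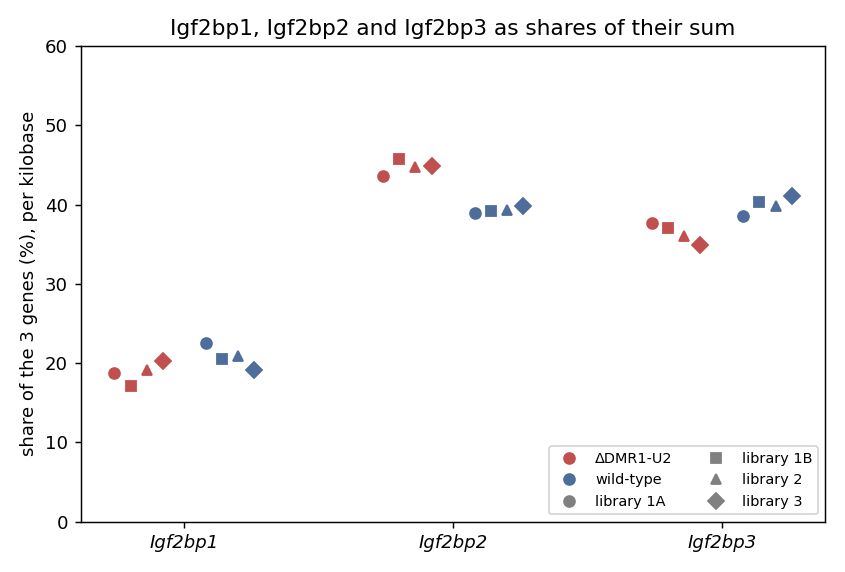
Share (%) of each Igf2bp gene in the sum of the 3, per kilobase of exon, in each library, ΔDMR1-U2 left and wild-type right for each gene. Igf2bp2 sits at 43.6% to 45.8% in ΔDMR1-U2 libraries and at 38.9% to 39.8% in wild-type libraries.

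Plag1, the zinc-finger transcription factor first found as rearranged in salivary gland adenomas, had the smallest p of the 9 tested genes. It lies on chromosome 4 from 3900996 to 3938423 on the minus strand. Plag1 had 46.4, 55.6, 46.8 and 51.4 CPM in ΔDMR1-U2 1A, 1B, 2 and 3, against 33.4, 34.5, 31.8 and 38.9 CPM in wild-type 1A, 1B, 2 and 3. All ΔDMR1-U2 libraries lay above all wild-type libraries, and the highest of each group were 1B and 3. The mean was 50.1 ± 4.32 CPM in ΔDMR1-U2 muscle, against 34.6 ± 3.03 CPM in wild-type muscle (SD, n = 4 each). The log2 fold change was 0.53 (SE 0.09), or 44.6% more (adjusted p = 0.0301, edgeR quasi-likelihood test). Leaving out ΔDMR1-U2 library 3, or any of wild-type libraries 1A, 1B and 2, ended the call, with log2 fold changes of 0.48 to 0.59 and adjusted p values up to 0.108 over the 8 fits (edgeR). In the authors' deposited table its ratio of wild-type to ΔDMR1-U2 was 0.691 with an adjusted p of 0.00534, making Plag1 the only one of the 10 genes under 0.05 there, where 0.887% of all genes with an adjusted p were.

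Chchd7, whose start lies 465 bases from that of Plag1 on the opposite strand, encodes a small mitochondrial protein. It was at 14.8 ± 1.19 CPM in ΔDMR1-U2 muscle, against 14.5 ± 0.888 CPM in wild-type muscle, a log2 fold change of 0.03 (adjusted p = 0.864, edgeR).

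Plagl1 and Plagl2, the relatives of Plag1, showed no called difference. Plagl1 is an imprinted zinc-finger gene, expressed from the paternal allele, that in mice heads a network of imprinted growth genes, and it lies on chromosome 10 from 13060504 to 13131694. It was the most abundant of the 10 genes, with 815, 865, 605 and 825 CPM in ΔDMR1-U2 against 699, 680, 789 and 676 CPM in wild-type. The overlap came from ΔDMR1-U2 library 2, at 605 CPM, since the other ΔDMR1-U2 libraries lay above every wild-type library. The log2 fold change was 0.13 (95% confidence interval -0.11 to 0.37, adjusted p = 0.521, edgeR), and 0.23 without ΔDMR1-U2 library 2. Plagl2, on chromosome 2 from 153227759 to 153241426, had 33.8, 26.1, 30.6 and 37.6 CPM in ΔDMR1-U2 muscle, against 33.3, 31.5, 34.0 and 29.9 CPM in wild-type muscle. The wild-type values lay within the range of the ΔDMR1-U2 values, with a log2 fold change of -0.0056 (95% confidence interval -0.24 to 0.23). Pofut1, which starts 107 bases from Plagl2 on the opposite strand and encodes a fucosyltransferase of Notch receptors, had 76.8 ± 7.36 CPM in ΔDMR1-U2 muscle, against 89.3 ± 3.13 CPM in wild-type muscle (adjusted p = 0.140, edgeR).

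Hmga2, the AT-hook protein whose loss gives the pygmy mouse, was higher in every ΔDMR1-U2 library but was not called. It lies on chromosome 10 from 120361275 to 120476469 on the minus strand. Hmga2 had 9.65, 9.66, 8.65 and 8.93 CPM in ΔDMR1-U2 1A, 1B, 2 and 3, against 6.23, 8.38, 7.74 and 6.20 CPM in wild-type 1A, 1B, 2 and 3. The gap between the groups was narrow, the lowest ΔDMR1-U2 library, 2, being at 8.65 CPM, against 8.38 CPM in the highest wild-type library, 1B. Its mean was 9.22 ± 0.512 CPM in ΔDMR1-U2 muscle, against 7.14 ± 1.10 CPM in wild-type muscle (SD, n = 4 each). The log2 fold change of 0.36 (SE 0.12) was as large as that of Igf2bp2, but its adjusted p was 0.133 (edgeR). Hmga2 had 96 to 219 counts per library, against 786 to 1439 for Igf2bp2. Its coefficient of variation was 15.4% in wild-type muscle, against 3.83% for Igf2bp2. In ΔDMR1-U2 muscle it was 5.55%, against 6.73% for Igf2bp2. What kept Hmga2 from being called was not tested. Without 1 library at a time its log2 fold change ran from 0.30 to 0.45. A row named as an Hmga2 pseudogene, Hmga2-ps1, was at 2.85 ± 0.438 CPM in ΔDMR1-U2 muscle, against 2.39 ± 0.187 CPM in wild-type muscle, and how reads common to both were assigned is not given.

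Hmga1, its paralog on chromosome 17 from 27556497 to 27563674, was nearly unmeasured. Its counts were 6, 4, 4 and 5 in the ΔDMR1-U2 libraries, against 8, 12, 9 and 8 in the wild-type libraries, below the filter. Hmga1 shares 102 exon bases with AI413582 on the opposite strand. Of the 50-base stretches of its annotated transcripts, 55.0% also occur in a copy, Hmga1b, on chromosome 11. How reads common to both were assigned is not given, so these counts may not reflect the full level of Hmga1. The authors' deposited table gives an adjusted p of 0.823 for Hmga1.

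Lin28a and Lin28b, the RNA-binding blockers of let-7 maturation, were detected at a trace. Lin28b, on chromosome 10 from 45376620 to 45486395, had counts of 47, 19, 44 and 27 in ΔDMR1-U2 1A, 1B, 2 and 3, or 2.40, 1.01, 2.63 and 1.33 CPM, against 18, 32, 30 and 26 counts in wild-type libraries, or 1.17, 1.22, 1.12 and 1.10 CPM. Only ΔDMR1-U2 libraries 1A and 2 stood well above the wild-type range, library 3 was just above it, and library 1B was below it. Its log2 fold change of 0.66 was the largest in size among the 9 tested genes, but with an SE of 0.29 it was not called (adjusted p = 0.220, edgeR), and it was 0.45 without ΔDMR1-U2 library 2 and 0.86 without library 1B.

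Lin28a, on chromosome 4 from 134003330 to 134018841, had counts of 35, 8, 21 and 27 in ΔDMR1-U2, or 1.79, 0.427, 1.25 and 1.33 CPM, and 27, 36, 34 and 41 counts in wild-type, or 1.75, 1.38, 1.27 and 1.74 CPM. Library 1B of ΔDMR1-U2 lay lowest and the other 7 libraries overlapped. Lin28a shares 234 exon bases with Gm13061 on the opposite strand, and whether strand was used in counting is not stated. Its log2 fold change was -0.33 with a 95% confidence interval of -1.05 to 0.38 (adjusted p = 0.582, edgeR), and it was -0.05 without ΔDMR1-U2 library 1B. The corresponding interval for Lin28b ran from 0.03 to 1.30.

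**Figure D4:**
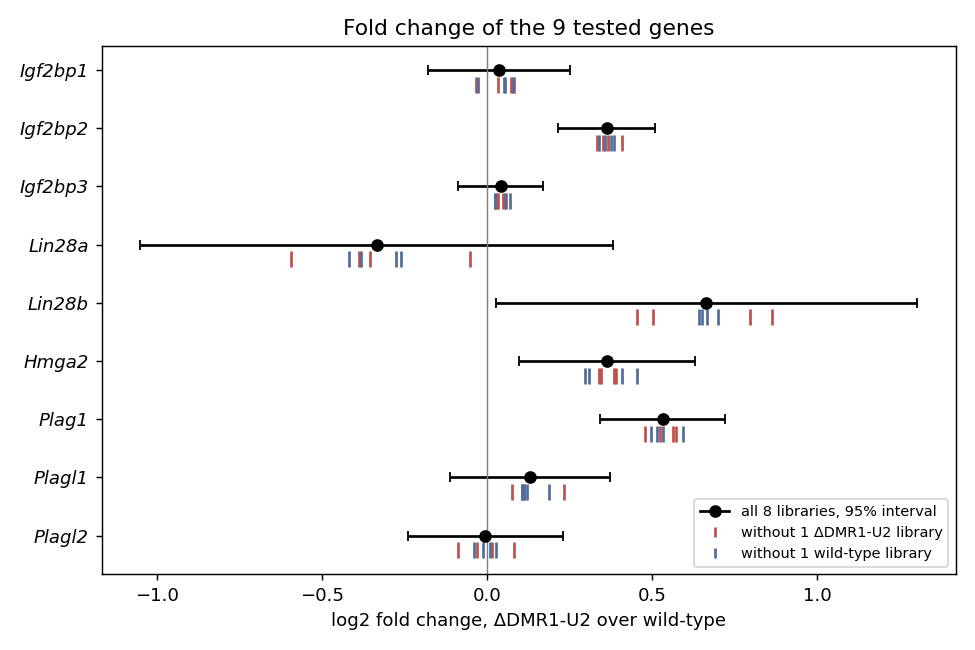
Log2 fold change of ΔDMR1-U2 over wild-type for the 9 tested genes, with the 95% confidence interval of the fit to all 8 libraries (black) and, under it, the value without each ΔDMR1-U2 library (red ticks) or each wild-type library (blue ticks). The ticks stay between 0.33 and 0.41 for Igf2bp2 and between 0.48 and 0.59 for Plag1, and run from -0.59 to -0.05 for Lin28a.

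Set against each other per length of exon, the genes spanned a wide range in newborn muscle. Plagl1 stood at 99.4 ± 15.0 CPM per kilobase in ΔDMR1-U2 and 90.9 ± 6.77 in wild-type (SD, n = 4 each), which in wild-type was above 97.9% of 13728 tested genes, whose median was 4.24. In wild-type the next were Igf2bp3 at 7.07, Igf2bp2 at 6.96, Plagl2 at 5.61, Plag1 at 4.08 and Igf2bp1 at 3.68 CPM per kilobase. Below them came Hmga2 at 1.05, Lin28a at 0.384, Hmga1 at 0.195 and Lin28b at 0.127 CPM per kilobase. The level and place of Hmga1 are uncertain. It rests on 4 to 12 counts per library and shares sequence with Hmga1b. No source used here states how reads with several matches were counted. The ranges of neighbours in this wild-type order overlapped for Igf2bp3 and Igf2bp2 and for Plag1 and Igf2bp1, and were apart for the other 7 neighbouring pairs. In ΔDMR1-U2 the order put Igf2bp2, at 8.95 CPM per kilobase, above Igf2bp3, at 7.28, with ranges apart, Plag1, at 5.90, above Plagl2, at 5.58, with ranges overlapping, and Lin28b, at 0.203, above Hmga1, at 0.118, also overlapping. The place of Igf2bp2 depended on the length used, since per kilobase of the longest transcript it averaged 13.4 in ΔDMR1-U2 muscle and Igf2bp3 13.7. With the longest transcript as the length, 6 of the 10 genes kept their place in the wild-type order, Plag1 at 7.25 and Plagl2 at 5.78 CPM per kilobase changing places and likewise the pair Lin28b and Hmga1.

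**Figure D5:**
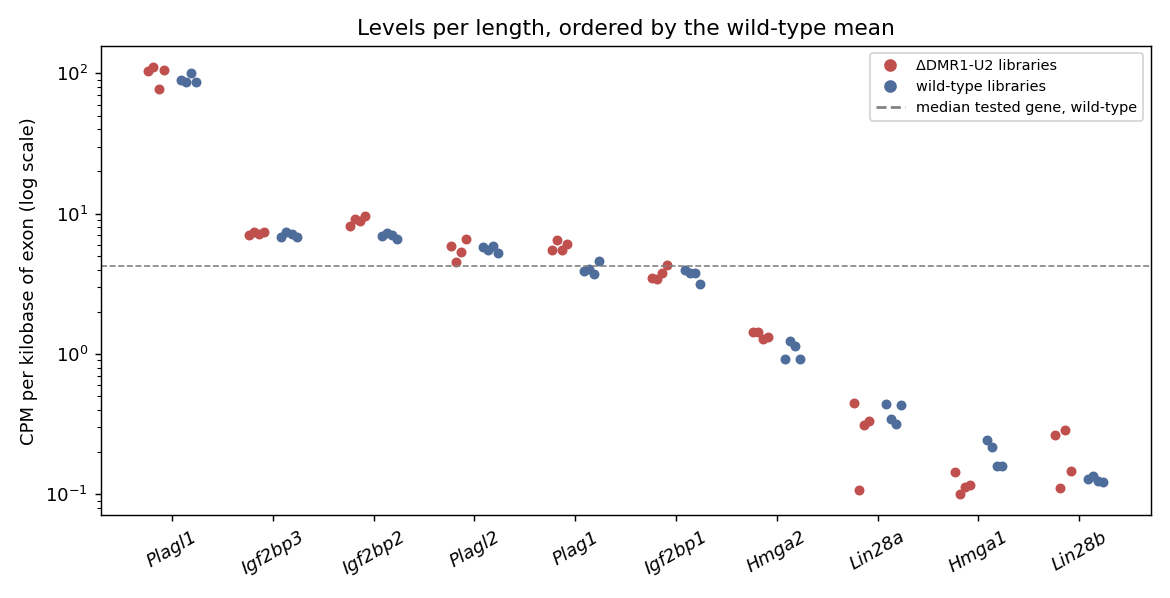
CPM per kilobase of annotated exon on a log axis, 1 point per library, ΔDMR1-U2 left and wild-type right for each gene, ordered by the wild-type mean. Plagl1 is far above the dashed median of tested genes (4.24), and Lin28a, Hmga1 and Lin28b lie under 0.5.

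None of the genes around let-7 passed the test over all genes. Of 15 listed genes of microRNA maturation, 13 had a row under the name searched, Ago1 and Ago2 having none. Of the 13, 12 were tested and 0 were called, with a median log2 fold change of 0.03. DESeq2 called 1 of the 12, against 962 of all 15241 genes. Of the 12, 1 had an unadjusted p under 0.05 (edgeR), a mark that 21.3% of all tested genes reached. That 1 gene, named after its value was seen, was Zcchc11, the uridylyl transferase that LIN28A recruits to let-7 precursors, at 122 ± 3.23 CPM in ΔDMR1-U2 muscle, against 105 ± 7.41 CPM in wild-type muscle, a log2 fold change of 0.21 (adjusted p = 0.106, edgeR). The helicase gene Ddx17, with 515 ± 31.9 CPM in ΔDMR1-U2, against 493 ± 5.37 CPM in wild-type, and its relative Ddx5, with 369 ± 40.7 CPM in ΔDMR1-U2, against 354 ± 25.7 CPM in wild-type, were the most abundant. Of the 12 let-7 gene rows, 7 were tested and 0 called (1 at an unadjusted p under 0.05; 0 by DESeq2), and these rows count reads over precursors, not mature microRNA. Their summed level was 9.28 to 13.2 CPM in ΔDMR1-U2 muscle, against 10.7 to 13.0 CPM in wild-type muscle. The most abundant were Mirlet7d, at 3.49 ± 0.710 CPM in ΔDMR1-U2, against 2.77 ± 0.157 CPM in wild-type, and Mirlet7f-1, at 2.21 ± 0.357 CPM in ΔDMR1-U2, against 2.45 ± 0.655 CPM in wild-type.

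Known let-7 targets outside the 10 genes were likewise not called. Of 19 listed, 18 had a row under the name searched (Hras had none), 17 were tested and 0 were called by edgeR. Their median log2 fold change was 0.05, and DESeq2 called 2 of the 17, against 962 of all 15241 genes. At an unadjusted p under 0.05 (edgeR) there were 6, 5 higher and 1 lower, against 21.3% of all tested genes. In the list, 12 of 19 genes carried the seed complement. The 2 most abundant were Igf1r, the type 1 IGF receptor, at 282 ± 42.3 CPM in ΔDMR1-U2 muscle, against 206 ± 14.8 CPM in wild-type muscle (log2 fold change 0.45, adjusted p = 0.0608, edgeR), and Insr, the insulin receptor, at 229 ± 42.9 CPM in ΔDMR1-U2, against 181 ± 15.4 CPM in wild-type (0.34, adjusted p = 0.149, edgeR). Across the transcriptome, 1369 tested genes with at least 1 match had 8 called higher and 7 called lower, or 1.1%, and the 11467 without a match had 1.19% called.

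Genes that work with the IGF2BP proteins or on the N6-methyladenosine mark they read were near their wild-type level. All 18 listed were tested and 0 were called (2 at an unadjusted p under 0.05; 0 by DESeq2), with log2 fold changes from -0.19 to 0.18. The most abundant were Hnrnpu, at 424 ± 35.8 CPM in ΔDMR1-U2 muscle, against 433 ± 13.8 CPM in wild-type muscle, and Matr3, at 298 ± 34.9 CPM in ΔDMR1-U2, against 292 ± 20.8 CPM in wild-type, both nuclear RNA-binding proteins. Of the other high-mobility-group genes, 7 of 7 had a lower value in ΔDMR1-U2 and 0 were called (3 at an unadjusted p under 0.05, against 21.3% of all tested genes; 0 by DESeq2), with a median log2 fold change of -0.18. This median was -0.04 without wild-type library 2 and -0.27 without ΔDMR1-U2 library 1A, where 1 of the 7 was called. The most abundant were Hmgn1, at 86.3 ± 7.57 CPM in ΔDMR1-U2 muscle, against 101 ± 9.52 CPM in wild-type muscle, and Hmgb1, at 86.7 ± 16.1 CPM in ΔDMR1-U2, against 91.1 ± 9.56 CPM in wild-type.

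None of the reported targets of the PLAG factors was called. Of 9 listed, 0 were called (1 at an unadjusted p under 0.05, lower; 0 by DESeq2), with a median log2 fold change of -0.05. Igf2, the transcript that the IGF2BP and PLAG proteins are best known to act on, was at 5128 ± 381 CPM in ΔDMR1-U2 muscle, against 4948 ± 289 CPM in wild-type muscle (log2 fold change 0.05, 95% confidence interval -0.13 to 0.24). H19 was at 17929 ± 1169 CPM in ΔDMR1-U2, against 16768 ± 1492 CPM in wild-type. The deletion lies at this locus, so its own effect on these levels cannot be told apart from any of Plag1 or Igf2bp2. Of 21 genes of the imprinted growth network linked to Plagl1 in mice, Zim1, a zinc-finger gene beside Peg3, was called higher, at 629 ± 72.9 CPM in ΔDMR1-U2 against 453 ± 5.77 CPM in wild-type (adjusted p = 0.0344, edgeR), and 20 were not called. With ΔDMR1-U2 library 3 or any 1 wild-type library left out, 0 of these 21 genes were called. The count was also 0 without ΔDMR1-U2 libraries 1A and 1B together and with a block for the replicate name. It was 1 without ΔDMR1-U2 library 1A or 2, and 2 without library 1B. DESeq2 called 1 of the 21, against 962 of all 15241 genes. At an unadjusted p under 0.05 (edgeR), 2 were higher and 1 was lower, against 21.3% of all tested genes. Among 7 tested genes of 11 other oncofetal ones, 0 were called (0 at an unadjusted p under 0.05; 0 by DESeq2). The most abundant were Gpc3, a growth-restraining glypican, at 365 ± 27.4 CPM in ΔDMR1-U2 muscle, against 339 ± 13.8 CPM in wild-type muscle, and Ezh2, a histone methyltransferase, at 36.7 ± 1.34 CPM in ΔDMR1-U2, against 37.3 ± 2.28 CPM in wild-type.

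Values of markers of dividing cells and of other cell types are given for the same libraries. All 12 proliferation genes had a negative log2 fold change, with a median of -0.31, and 0 were called. Of the 12, 7 had an unadjusted p under 0.05 (edgeR), against 21.3% of all tested genes. DESeq2 called 1 of the 12, against 962 of all 15241 genes. The sum of the 12 was 548 to 756 CPM in ΔDMR1-U2 muscle, against 632 to 853 CPM in wild-type muscle. The most abundant were Mki67, at 293 ± 42.1 CPM in ΔDMR1-U2 muscle, against 342 ± 50.8 CPM in wild-type muscle, and Top2a, at 137 ± 23.9 CPM in ΔDMR1-U2, against 172 ± 24.9 CPM in wild-type. The 7 chondrocyte markers, all with negative values and 0 called, summed to 146 to 1039 CPM in ΔDMR1-U2 muscle, against 248 to 1835 CPM in wild-type muscle. The sum of the 10 myogenic progenitor markers was 404 to 464 CPM in ΔDMR1-U2 muscle, against 419 to 521 CPM in wild-type muscle. All 5 Schwann cell markers, genes of the myelinating glia of nerves, had positive values with a median log2 fold change of 0.71. Of them 0 were called, and 4 had an unadjusted p under 0.05, against 21.3% of all tested genes (edgeR). Their sum was 279 to 347 CPM in the ΔDMR1-U2 libraries, with no overlap with the 197 to 267 CPM of the wild-type libraries. Of single tested genes, 12.8% had groups that did not overlap. Most of the sum was Pmp22, at 185 ± 9.41 CPM in ΔDMR1-U2, against 169 ± 11.7 CPM in wild-type, a log2 fold change of only 0.13. All 6 tested adipocyte markers had positive values and 0 were called. Of 5 brown adipocyte markers, 4 were tested, with a median log2 fold change of 0.20. Only the lipid droplet gene Cidea was called, higher, with 22.0 ± 6.79 CPM in ΔDMR1-U2 muscle, against 10.5 ± 0.541 CPM in wild-type (log2 fold change 1.07, adjusted p = 0.0301, edgeR). Dio2 (0.29), Ppargc1a (0.12) and Elovl3 (-0.25) were not called, and Ucp1, which defines these cells, was below the filter. All 8 muscle fibre markers had negative values, and the myoglobin gene Mb was called lower, with 8.59 ± 1.81 CPM in ΔDMR1-U2 muscle, against 14.7 ± 1.14 CPM in wild-type (log2 fold change -0.78, adjusted p = 0.0348, edgeR). Of the fibroblast, endothelial, macrophage, erythroid and keratinocyte markers, 0 were called. Negative values were held by 6 of 7 fibroblast, 5 of 5 macrophage and 2 of 2 tested erythroid markers. Positive ones were held by 3 of 5 endothelial and 4 of 4 tested keratinocyte markers. Sums of fibroblast markers were 18327 to 23163 CPM in ΔDMR1-U2 muscle, against 21356 to 29762 CPM in wild-type muscle. The part of all these cell types in the levels of Igf2bp2, Plag1 and Hmga2 was not tested. Without ΔDMR1-U2 libraries 1A and 1B together, Igf2bp2 had a log2 fold change of 0.41 (adjusted p = 0.0702) and Plag1 one of 0.50 (adjusted p = 0.0855, edgeR).

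The likeness of each tested gene to all 15240 others was measured by Pearson's r of the deviations of log2 CPM from the group means over the 8 libraries. These are the highest of many values and are given as a description, without p. Igf2bp2 was most like 4933413J09Rik (r = 0.982, Spearman's rho 0.976, r = 0.958 without the 2 farthest libraries) and Pvr (r = 0.974, rho 0.976, 0.938 without them). Plag1 was most like Tuba8 (r = 0.985, rho 0.952, 0.943), and 2410006H16Rik (r = 0.971, rho 0.929, 0.952). Hmga2 was most like Pramef8 (r = 0.991) and Smc1a (r = 0.986), Plagl1 most like Fgf10 and 5031426D15Rik (r = 0.987 each) and Plagl2 most like Gm15408 (r = 0.986) and Eml6 (r = 0.981). The remaining genes nearest to a member were Plekha4 and Ppp1r3b for Igf2bp1, Ttc30a1 and Ptch1 for Igf2bp3, St8sia5 and Nr3c2 for Lin28a, and 2310003L22Rik and Ptp4a2 for Lin28b, at r = 0.961 to 0.999. Among the 36 pairs of the 9 genes themselves, r ran from -0.71 to 0.80 and was positive in 21.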

How the data were processed

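One table held the data. Per the file headers, it gives raw read counts per gene for each of the 8 samples, deposited by the authors without normalization, beside the authors' mean normalised signal per group, their ratio (fold change) and log2 ratio of wild-type over ΔDMR1-U2, and their p-values. Per the labels' protocols, ribosomal RNA was removed from total RNA before paired-end sequencing. Per the submitters' processing notes, the build was mm10 and HTSeq 0.5.4p3, TopHat2 2.0.9 and DESeq2 1.4.5 were among the tools; no source used here states the gene annotation, the strand setting or the treatment of reads with several matches.

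Counts were compared with edgeR 4.0.16 (filterByExpr at a minimum count of 10, trimmed mean of M values, quasi-likelihood test, Benjamini-Hochberg over the 15241 genes kept, called under 0.05), and all fold changes run ΔDMR1-U2 over wild-type. Levels are CPM, per kilobase where genes are compared. The test was tested on simulated data. Samples were grouped by title. No source used here says that the samples of a group came from separate animals, so p-values measure the spread between these samples. Named genes were the 10 members and every called gene of each companion list, or else its 2 most abundant. Marker lists of other cell types are given by sum, median or direction, with called genes and some others named. Also named were genes starting beside a member, some of those overlapping one, and for each tested member the 2 genes most like it. The members and lists were chosen with earlier results of these data known. Alternatives were DESeq2 1.42.0, its size factors, other filters, a replicate block and leaving out libraries. Positions and exon lengths came from GENCODE vM21.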

Additional observations from a re-analysis of the deposited data

How the results depend on the processing

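The number of genes called over the whole table was 172, and with 1 library left out lay between 7 (omitting ΔDMR1-U2 library 3, and likewise omitting wild-type library 1A) and 631 (omitting ΔDMR1-U2 library 2). It was 962 with DESeq2, 13 with the replicate block and 16 without ΔDMR1-U2 libraries 1A and 1B together. Of the 10 genes described, 2 were called, Igf2bp2 and Plag1, also with DESeq2, with its size factors, with no filter on low counts and at a minimum count of 50. When 1 library was left out, 0 to 2 were called, and 0 with the replicate block (adjusted p = 0.0633 for Plag1 and 0.112 for Igf2bp2, edgeR) and without both libraries. The deviations of same-named libraries of the 2 groups correlated at -0.22 to -0.080. The names were not taken as a pairing, and the block is given only as an alternative. The deviations are centred within each group, so these correlations cannot settle whether the libraries were paired. The log2 fold change of Plagl2 turned sign at a minimum count of 50 (0.0044) and without both libraries (0.085), and with 1 library left out lay between -0.089 and 0.082. That of Igf2bp1 lay between -0.033 and 0.081 with 1 library left out. The signs of the other 7 tested genes were kept in every fit that held them. With the longest transcript as length, 6 of 10 genes kept their place in the wild-type order. Counts limit Lin28a, Lin28b and Hmga1, with 4 to 47 per library, and the cause of the differences between fits was not tested.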
